A study of Mus musculus with 4 samples.

Results

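The genes described here carry out classical MHC class I antigen presentation in mouse tumour macrophages. They comprise the heavy chain genes H2-K1 and H2-D1, the light chain gene B2m, the peptide transport and loading genes Tap1, Tap2 and Tapbp, the immunoproteasome genes Psmb8, Psmb9 and Psmb10, and the transactivator gene Nlrc5. They were chosen by function, with earlier results of these data known. Each was found by matching its Ensembl identifier in the authors' gene table to a symbol. All 10 were found, in 10 of the table's 53139 rows, and all 10 were among the 12648 rows, or loci, that the authors had tested.

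Class I molecules display fragments of the cell's own proteins to CD8 T cells. The proteasome cuts the proteins, the TAP1-TAP2 transporter carries the fragments into the endoplasmic reticulum, tapasin holds the empty class I molecule next to the transporter, and a heavy chain paired with beta-2 microglobulin takes the fragment to the cell surface. The immunoproteasome is a form of the proteasome in which the 3 catalytic subunits are replaced by inducible ones, which changes the fragments made. NLRC5 is a transcriptional activator of these genes and interferon gamma is their classical inducer, and macrophages use the pathway both for their own proteins and for material they have taken up.

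The macrophages came from MCA fibrosarcoma tumours of the 9609 line, labelled parent and of wild-type genotype, and were treated in vitro with exosomes, small vesicles that cells release. Of 4 samples, 2 received MEK1-hi exosomes and 2 received MEK1-low exosomes, which the labels also call GFP, so that MEK1 content and that difference cannot be told apart. MEK1 is a kinase that activates ERK. No untreated macrophages were among the samples, and the mouse strain and age, the exosome dose and the time of treatment are not given in the sources used here. Nothing in the labels tells whether a group's 2 samples were grown or taken separately. The authors' p-values thus weigh the difference between the groups against a variation that may be technical alone. The authors' table holds 1 value per group, in FPKM, the number of sequenced fragments scaled to transcript length and library size, so no spread between samples can be given and depth is unknown. Because FPKM is a level per transcript length, levels of different genes can be set side by side. Log2 fold changes are of MEK1-hi over MEK1-low on the log2(FPKM + 1) scale, and a locus is said to be called where the authors' Cuffdiff test gave it a q-value under 0.05. Only a called locus is said to have fallen, where its value was lower with MEK1-hi exosomes, or to have risen, where it was higher.

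The 4 promoter stretches below are shown for the binding motifs that class I promoters are known for. They are taken from RefSeq windows on GRCm38.p6 that run from 250 bases before to 50 bases after an annotated start of transcription, and are written 5′ to 3′ on the named strand. Such windows were matched for 8 of the 10 genes, with the first of 2 used for H2-K1. Tap2 and Nlrc5 were not matched. Capitals mark matches on either strand to the NF-kB consensus, to AANNGAAA (the core of the interferon-stimulated response element), to TGACG (the core bound by CREB and ATF factors, as in the X2 box) and to CCAAT (bound by NF-Y, as in the Y box). The H2-K1 stretch lies at chr17:34000349-34000468 on the minus strand, the H2-D1 stretch at chr17:35262913-35263055 on the plus strand, and the B2m stretch at chr2:122147540-122147648 on the plus strand. The last stretch, chr17:34187331-34187555 on the plus strand, is the interval of 225 bases between the RefSeq start of Psmb9, read leftwards, and that of Tap1, read rightwards. Gene positions given further on are the outermost bounds in GENCODE M21, whose starts can lie elsewhere. The RefSeq start used lay 364 bases inside the GENCODE bounds for H2-D1, 434 for Psmb9, 474 for Psmb8 and 3579 for Tapbp, so the H2-D1 stretch and the Psmb9 and Tap1 interval lie within the genes as GENCODE bounds them. For H2-K1, B2m and Tap1 both starts lay within 3 bases of each other.
H2-K1: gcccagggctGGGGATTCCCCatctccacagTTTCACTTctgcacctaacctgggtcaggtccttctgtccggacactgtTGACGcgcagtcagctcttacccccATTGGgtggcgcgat
H2-D1: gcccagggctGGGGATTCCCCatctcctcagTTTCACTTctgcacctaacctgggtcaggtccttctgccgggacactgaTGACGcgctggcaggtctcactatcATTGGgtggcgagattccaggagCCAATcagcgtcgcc
B2m: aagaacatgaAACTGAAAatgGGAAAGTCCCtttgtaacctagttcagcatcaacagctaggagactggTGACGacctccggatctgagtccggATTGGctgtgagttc
Psmb9 and Tap1: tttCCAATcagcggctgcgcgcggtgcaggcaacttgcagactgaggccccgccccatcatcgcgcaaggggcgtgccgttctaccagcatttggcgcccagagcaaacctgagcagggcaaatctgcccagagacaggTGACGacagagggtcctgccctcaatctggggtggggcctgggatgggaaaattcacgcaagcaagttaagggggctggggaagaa

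The H2-K1 and H2-D1 stretches were identical at 108 of 120 aligned bases, with 23 bases of the longer one unaligned, and carried the motifs in the same order. A further CCAAT match ends the H2-D1 stretch, and H2-K1 has one too, 8 bases after the start at which its stretch was ended. In B2m the interferon element core came first, 137 bases before the start, and the NF-kB match followed it. The interval between Psmb9 and Tap1 held 1 CCAAT and 1 TGACG match and neither of the other 2 motifs. The windows of H2-K1, H2-D1 and B2m held all 4 motifs. Of all 32851 windows, these included, 30 did (0.0913%). This combination was chosen after the matches were seen. Taken singly, the NF-kB consensus stood in 3 of the 8 windows and in 4.51% of all windows, AANNGAAA in 3 of 8 and in 23.9%, TGACG in 5 of 8 and in 20.8%, and CCAAT in 6 of 8 and in 37.4%. The longer form GAAANNGAA, which overlaps the core, stood in 1 of 8, that of B2m, and in 8.56% of all windows. The windows of Psmb8 and Psmb10 held no match, which says only that these letters are not in those 300 bases. A match describes the sequence and is not evidence of binding.

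**Figure D1:**
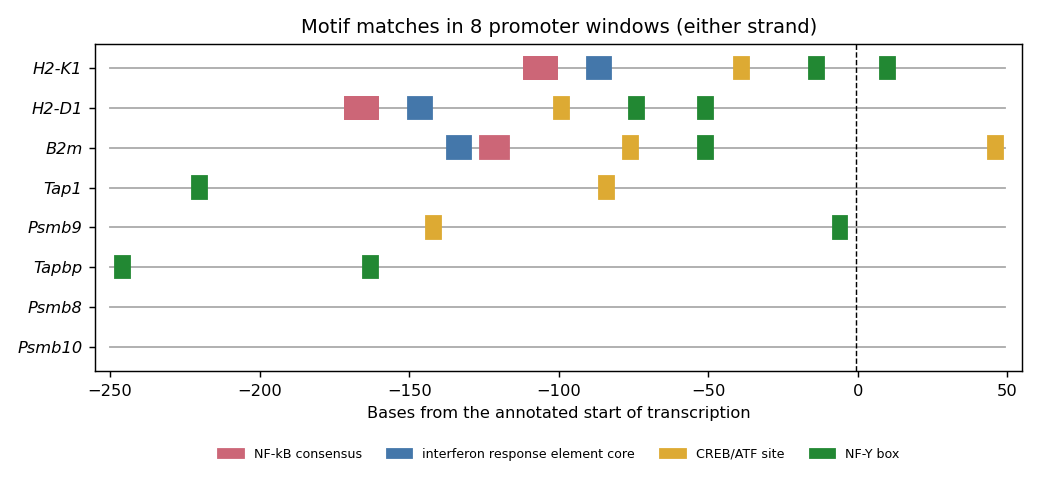
Each line is the promoter window of 1 gene, from 250 bases before to 49 bases after the first transcribed base, which counts as 0 (horizontal axis, bases), and coloured boxes are motif matches on either strand. H2-K1, H2-D1 and B2m carry all 4 kinds of motif, and the windows of Psmb8 and Psmb10 carry none of them.

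Macrophage markers were present at up to 13148 FPKM (Lyz2), and 0 of 7 were called by Cuffdiff, with 1 (Fcgr1, at 107 and 153 FPKM) higher at an unadjusted p under 0.05. Here and below, the first of a pair of FPKM values is that of MEK1-low and the second that of MEK1-hi exosomes. Of the 7 macrophage markers, 5 had higher values with MEK1-hi exosomes and 2 had lower ones. The 2 were Csf1r, at 855 and 672 FPKM, and Adgre1, at 387 and 318 FPKM (log2 fold changes -0.35 and -0.28). Dendritic cell markers, of cells rich in class I transcripts, summed to 42.5 and 37.7 FPKM over 7 genes, mostly Batf3 at 37.8 and 32.9 FPKM. Clec9a, in a locus joined with Clec1b, had the higher value with MEK1-hi exosomes, at 3.97 and 4.35 FPKM, with Xcr1, Flt3, Zbtb46 and Ccr7 under 1 FPKM and Cd209a listed at 0. The 6 neutrophil markers summed to 73.3 and 53.4 FPKM, from S100a8 and Csf3r alone, with the other 4 listed at 0. The sums were 6.99 and 4.87 FPKM for 8 T and NK cell markers, mostly Cd4, and 6.64 and 5.38 FPKM for 8 fibroblast markers. They were 1.62 and 1.20 FPKM for 3 endothelial markers and 6.54 and 4.10 FPKM for 3 epithelial markers, mostly Krt18. The 4 B cell markers summed to 0 and 0.0321 FPKM. No marker was called by Cuffdiff, and S100a8 and Krt18 were lower at an unadjusted p under 0.05. Of all loci tested, 2.44% were called and 5.12% were lower at that p. Many markers were not tested and so could not be called. Tested were 2 of 7 dendritic cell, 1 of 8 T and NK cell, 0 of 4 B cell and 2 of 6 neutrophil markers. So were 5 of 8 fibroblast, 2 of 3 endothelial, 1 of 3 epithelial and all 7 macrophage markers. Apart from the B cell markers, the sums of other cell types were lower with MEK1-hi exosomes, as were most values of the 10 genes described next, and their part in those values was not tested.

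The heavy and light chain genes were among the most abundant transcripts of these cells and had lower values with MEK1-hi exosomes, but none of the 3 was called. H2-K1 (ENSMUSG00000061232, chromosome 17, 33996017 to 34000347, minus strand) encodes a classical heavy chain. It stood at 2507 FPKM under MEK1-low and 1549.6 FPKM under MEK1-hi exosomes, rank 20 and rank 35 among all loci. The log2 fold change was -0.69, a value 38.2% lower, with p = 0.0019 and q = 0.0681 by Cuffdiff in the authors' deposited table. The largest p of any called locus was 0.00105, and 40 loci that were not called had a q below that of H2-K1. In these bulk samples, fewer cells of a type and less RNA per cell cannot be told apart.

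H2-D1, the other classical heavy chain gene (ENSMUSG00000073411, chromosome 17, 35262730 to 35267499, plus strand), stood at 2208 FPKM under MEK1-low and 1540.1 FPKM under MEK1-hi exosomes. The log2 fold change was -0.52 (p = 0.00345, q = 0.105 by Cuffdiff in the authors' deposited table). Both heavy chain genes thus had lower values with MEK1-hi exosomes, and their levels lay closer together there. The ratio of H2-K1 to H2-D1 was 1.14 under MEK1-low and 1.01 under MEK1-hi exosomes, a difference for which no test was available.

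B2m, the light chain gene (ENSMUSG00000060802, chromosome 2, 122147686 to 122153083), was the most abundant of the 10. Its level was 6177 FPKM under MEK1-low and 4913 FPKM under MEK1-hi exosomes, rank 6 and rank 10 of all loci. The log2 fold change was -0.33 (p = 0.0663, q = 0.663 by Cuffdiff in the authors' deposited table). Summed, H2-K1 and H2-D1 stood at 0.763 of the B2m level under MEK1-low and 0.629 of it under MEK1-hi exosomes. The sum of the 10 genes made up 1.81% of the FPKM total under MEK1-low and 1.39% under MEK1-hi exosomes, most of it from these 3.

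**Figure D2:**
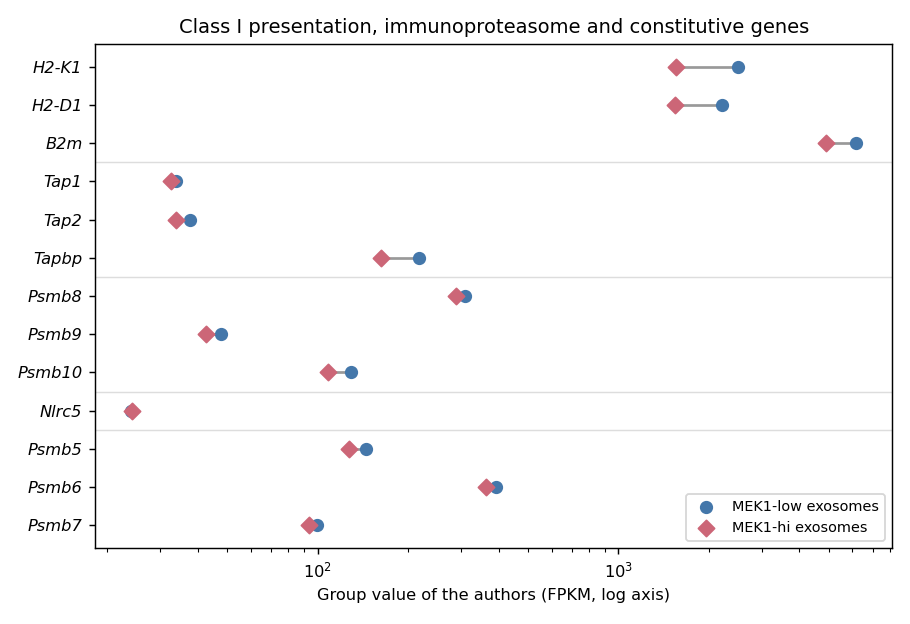
Group values in FPKM on a log axis for the 10 genes and for the 3 constitutive proteasome genes at the bottom, with circles for MEK1-low and diamonds for MEK1-hi exosomes and 1 value per group without error. The diamonds lie left of the circles except for Nlrc5, at 24.1 and 24.2 FPKM, and the gaps are widest for H2-K1, H2-D1 and Tapbp.

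H2-K1 and H2-D1 had low log2 fold changes among the most abundant transcripts. Of the 74 tested loci that reached 1000 FPKM in at least 1 group, H2-K1 had the lowest log2 fold change, H2-D1 the fifth lowest and B2m the thirteenth. The middle 50% of these 74 loci ran from -0.27 to 0.14, with a median of -0.04, and 41 of them (55.4%) had lower values with MEK1-hi exosomes. Cuffdiff called 5 of the 74 (6.76%), all named here after their values were seen, where it called 2.44% of all loci tested. The predicted genes Gm21399 and Gm7204 were lower, at log2 fold changes of -0.55 and -0.54, and Lgals1, the locus of Spp1 and Gm42793, and Cd36 were higher, at 0.59, 0.93 and 0.95. H2-K1 thus lay beyond changes that were called at such levels and was itself not called.

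The transporter genes differed little between the groups. Tap1 (chromosome 17, 34187553 to 34197225) stood at 33.8 FPKM under MEK1-low and 32.7 FPKM under MEK1-hi exosomes, and the log2 fold change was -0.05 (q = 0.999 by Cuffdiff in the authors' deposited table). Tap2 (chromosome 17, 34203527 to 34216321), whose product forms the transporter together with that of Tap1, stood at 37.5 and 33.9 FPKM, and the log2 fold change was -0.14 (q = 0.999 by Cuffdiff in the authors' deposited table). The ratio of Tap2 to Tap1 was 1.11 under MEK1-low and 1.04 under MEK1-hi exosomes, so that both genes of the transporter stood at nearly the same level in each group.

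Tapbp, which encodes tapasin (chromosome 17, 33915899 to 33929292), was the third member with an unadjusted p under 0.05. Its locus stood at 217 FPKM under MEK1-low and 162 FPKM under MEK1-hi exosomes, and the log2 fold change was -0.42 (p = 0.00395, q = 0.116 by Cuffdiff in the authors' deposited table). The table joins Tapbp with Zbtb22, a zinc finger gene that overlaps it on the same strand, so reads of the 2 genes cannot be told apart. The locus stood 6.43-fold above Tap1 with MEK1-low and 4.96-fold above it with MEK1-hi exosomes.

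The 3 immunoproteasome genes had slightly lower values with MEK1-hi exosomes and none was called. Psmb8 (chromosome 17, 34197721 to 34201454), which replaces Psmb5 in the core particle, stood at 309 FPKM under MEK1-low and 289 FPKM under MEK1-hi exosomes, and the log2 fold change was -0.10. Psmb9 (chromosome 17, 34181987 to 34187764), which replaces Psmb6, stood at 47.7 and 42.5 FPKM, and the log2 fold change was -0.16. Psmb10 (chromosome 8, 105935735 to 105938444), which replaces Psmb7, stood at 129 and 109 FPKM, and the log2 fold change was -0.25. Their p-values by Cuffdiff in the authors' deposited table were 0.577 for Psmb8, 0.526 for Psmb9 and 0.272 for Psmb10, each with q = 0.999. The 3 subunits were far from equal in level, with Psmb8 standing 6.47-fold above Psmb9 with MEK1-low and 6.80-fold above it with MEK1-hi exosomes.

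The constitutive counterparts give a reference for these levels. Psmb5, joined with the microRNA gene Mir686, stood at 145 FPKM under MEK1-low and 127 FPKM under MEK1-hi exosomes. Psmb6 stood at 391 and 364 FPKM, and Psmb7 at 99.5 and 93.7 FPKM. None of the 3 was called (q = 0.999 for each by Cuffdiff in the authors' deposited table). Psmb8 thus stood above its counterpart, with a ratio to Psmb5 of 2.14 under MEK1-low and 2.28 under MEK1-hi exosomes. Psmb10 stood slightly above Psmb7, at ratios of 1.30 and 1.16. Psmb9 stood far below Psmb6, at ratios of 0.122 and 0.117. Summed over the 3 pairs, the immunoproteasome genes stood at 0.765 of the constitutive genes under MEK1-low and 0.753 under MEK1-hi exosomes. In the reference transcripts, 22.2% of the different stretches of read length (100 bases) in Psmb5 stood in other genes, mostly Gm3375. For Psmb7, 19.98% stood in Nek6, and for Psmb6 0 stood in another gene. The values of Psmb5 and Psmb7, and the ratios that use them, may thus rest in part on reads of other genes. No spread was available to test any of these ratios.

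Nlrc5, the transactivator gene (chromosome 8, 94434356 to 94527272), was the single member whose value was not lower. Its level was 24.1 FPKM under MEK1-low and 24.2 FPKM under MEK1-hi exosomes, the smallest difference of the 10 (log2 fold change 0.01, p = 0.971, q = 0.999 by Cuffdiff in the authors' deposited table). From lowest to highest with MEK1-low exosomes the order of levels was Nlrc5, Tap1, Tap2, Psmb9, Psmb10, Tapbp, Psmb8, H2-D1, H2-K1 and B2m, and it was the same with MEK1-hi exosomes. Without values per sample it cannot be said which neighbours in that order differ beyond their spread.

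Taking the 10 together, Cuffdiff called 0, where it called 2.44% of all loci tested, 1.69% as lower and 0.751% as higher with MEK1-hi exosomes. At a q under 0.10, 1 of the 10 passed (H2-K1), where 3.11% of loci did. At an unadjusted p under 0.05, 3 were lower (H2-K1, H2-D1 and Tapbp) and 0 were higher, where 8.66% of loci passed, 5.12% as lower and 3.53% as higher. Values were lower with MEK1-hi exosomes in 9 of 10, where 49.8% of loci tested at 1 FPKM or more were lower. The median log2 fold change of the 10 was -0.21, and that of all 11804 loci tested at 1 FPKM or more was 0.00, with the middle 50% of loci between -0.14 and 0.13. H2-K1, H2-D1, B2m, Tapbp, Psmb9 and Psmb10 lay below that middle range, Tap2 lay at its lower edge, and Psmb8, Tap1 and Nlrc5 lay within it. Because the 10 were chosen with earlier results of these data known, these counts only describe them, and their difference from all loci was not tested.

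**Figure D3:**
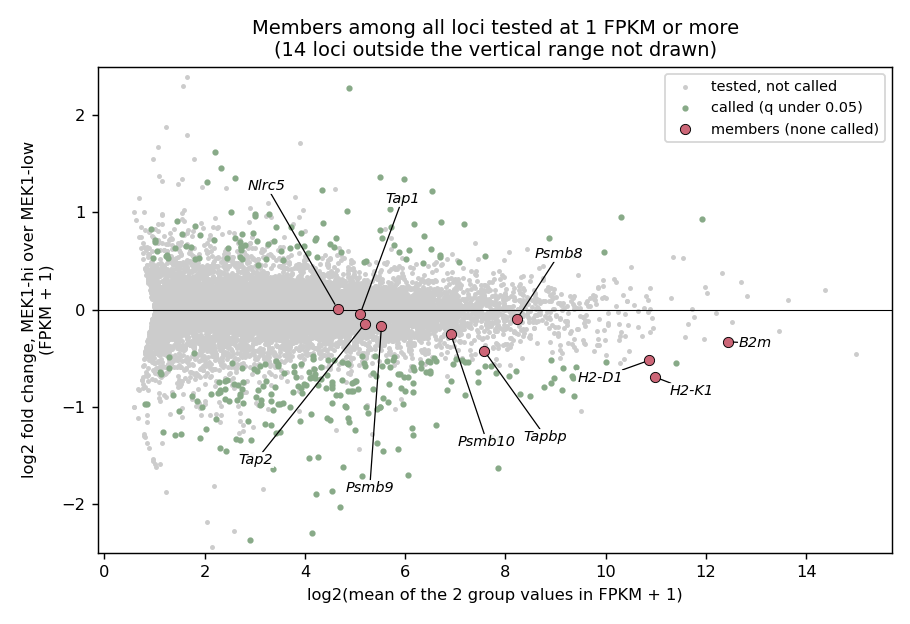
Log2 fold change of MEK1-hi over MEK1-low (vertical axis, FPKM + 1) against log2 mean level (horizontal axis) for all loci tested at 1 FPKM or more, with called loci in green and the 10 genes in red. H2-K1, at -0.69, and H2-D1, at -0.52, lie at the lower edge of the loci of their level, while Nlrc5 lies on the zero line.

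Of the 10 genes, 7 lie within the H2 region, the mouse MHC, on chromosome 17. Counting from Tapbp to H2-M3, a stretch of 3.36 Mb chosen after values were seen, 100 loci were tested at 1 FPKM or more and 67 of the 100 had lower values with MEK1-hi exosomes. The 67 include all 7 of the genes described here. Of the 93 other loci, 60 had lower values, and their median log2 fold change was -0.06. Cuffdiff called 8 of the 100, all lower and none of them among the 10 genes. Over the whole table, 49.8% of loci tested at 1 FPKM or more had lower values. Of all loci tested, 2.44% were called, 1.69% as lower. Tap1, Psmb9, Psmb8 and Tap2 lie next to each other, 187 to 203 kb from the start of H2-K1, and had log2 fold changes between -0.16 and -0.05. H2-K2, 21.5 kb from H2-K1 on its other side, was called at a log2 fold change of -0.85. H2-D1 lay 1262 kb from H2-K1, and the nearest called loci on its sides were Tnf (log2 fold change -0.85) and H2-Q4 (-0.83).

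**Figure D4:**
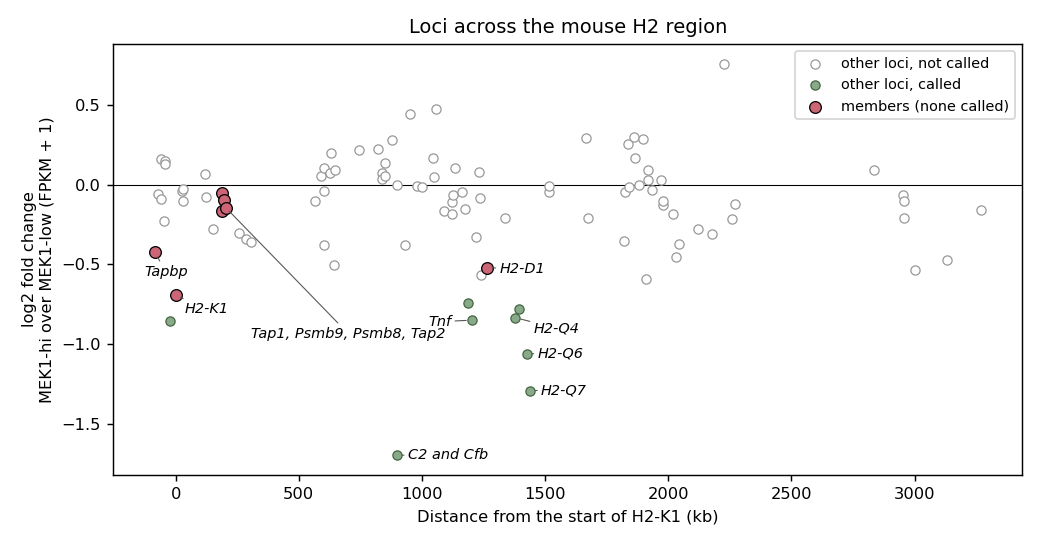
Log2 fold change (vertical axis, FPKM + 1) of loci tested at 1 FPKM or more against distance in kb from the start of H2-K1 (horizontal axis), with called loci in green and the 7 genes of the region described here in red. The cluster of Tap1, Psmb9, Psmb8 and Tap2 lies between -0.16 and -0.05, and H2-K1 and H2-D1 lie lower, at -0.69 and -0.52.

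The non-classical list holds relatives of H2-K1 and H2-D1, from the H2-Q, H2-T and H2-M genes of the same region to the more distant Cd1d1, Mr1, Hfe and Fcgrt on other chromosomes. Of 12 such genes tested, 3 were called as lower and 0 as higher in the authors' deposited table (Cuffdiff). Values were lower with MEK1-hi exosomes in 11 of the 12, and the median log2 fold change was -0.33, against -0.21 for the 10 genes. At an unadjusted p under 0.05, 5 were lower and 1 was higher, where 5.12% of all loci tested were lower and 3.53% higher. Of all loci tested, 1.69% were called as lower and 0.751% as higher. H2-Q4 fell from 81.2 to 45.1 FPKM, H2-Q6 from 50.9 to 23.9 FPKM and H2-Q7 from 100.0 to 40.2 FPKM (q = 0.00349 for each in the authors' deposited table). H2-T23, the most abundant of them, stood at 193 and 141 FPKM, Cd1d1, a lipid-presenting molecule, at 6.09 and 3.94 FPKM, and Hfe, a regulator of iron uptake, at 11.1 and 15.8 FPKM. These 3 were not called by Cuffdiff (q = 0.294, 0.204 and 0.490 in the authors' deposited table). In the reference transcripts, 0 of the 2262 different stretches of read length (100 bases) in H2-K1 stood in another gene, against 4.09% in H2-D1 and 17.2% in H2-Q7. With stretches of 50 bases the shares were 6.87%, 13.9% and 34.9%. At 100 bases, H2-Q6 and H2-Q7 had 166 stretches in common, 8.36% of those of H2-Q6 and 9.34% of those of H2-Q7. The values of these 2 genes may thus rest in part on the same reads. These shares hold for the reference strain, and class I genes differ between strains.

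Overlaps with other kinds of gene touch further members. Of the read-length stretches of Tapbp, 12.7% stood in other genes, and 0 of those of B2m, Psmb10 and Nlrc5 did. By their GENCODE bounds Psmb9 and Tap1 overlap by 212 bases on opposite strands, and 6.73% of the read-length stretches of Psmb9 stood in Tap1. An antisense gene overlaps 2710 bases of Psmb10, and Patl2 spans the whole of B2m on the opposite strand. The libraries were made with a stranded kit, but no source used here says that strand was used in assigning reads. Where stretches were shared, as in Psmb9 and Tap1, reads of the partners therefore may not have been told apart. Shares were counted on either strand, so for B2m and Psmb10, at 0, this concerns only reads from outside the reference transcripts.

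The other subunits of the core particle and its regulators were close to the zero line. Of 11 further core subunit genes tested, 0 were called by Cuffdiff and 0 had an unadjusted p under 0.05, with values lower in 8 and a median log2 fold change of -0.05. Psmb4, the most abundant, stood at 216 and 205 FPKM, Psma7 at 212 and 191 FPKM and Psmb2 at 176 and 162 FPKM. Of 9 activator and assembly genes, 0 were called by Cuffdiff and 0 had an unadjusted p under 0.05, with a median of 0.00. Among all loci tested, 2.44% were called and 8.66% had an unadjusted p under 0.05. Psme1 and Psme2 encode the interferon-inducible activator that caps the immunoproteasome, and had levels of 176 and 164 FPKM and of 13.1 and 11.7 FPKM. Pomp, the assembly chaperone of the core particle, stood at 303 and 322 FPKM, and the assembly chaperone gene Psmg2 at 16.4 and 19.6 FPKM.

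Most helper genes of peptide loading had higher values with MEK1-hi exosomes, but none was called. Of 12 genes for the loading complex and for folding in the endoplasmic reticulum, 8 had higher values, 0 were called by Cuffdiff, and 2 were higher and 0 lower at an unadjusted p under 0.05. Pdia4, a disulfide isomerase gene joined with Mir704, stood at 52.1 and 67.7 FPKM (p = 0.01095, q = 0.236 by Cuffdiff in the authors' deposited table). The other was Pdia6, of the same family, named after its value was seen, at 153 and 188 FPKM. Calr, which encodes calreticulin, the chaperone of newly assembled class I molecules, stood at 762 and 798 FPKM, and the chaperone gene Hspa5 at 382 and 409.7 FPKM. Tapbpl, which encodes the tapasin-related editor of bound peptides, stood at 11.6 and 9.16 FPKM. The median log2 fold change of these 12 was 0.06, against -0.21 for the 10 genes. Among all loci tested, 3.53% were higher and 5.12% lower at an unadjusted p under 0.05, and 2.44% were called.

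Peptide-trimming genes were not called either. Of 10 tested, 0 were called by Cuffdiff and 1 was higher and 0 lower at an unadjusted p under 0.05, with a median log2 fold change of 0.03. The shares of all loci tested were 2.44% called, and 3.53% higher and 5.12% lower at that p. Thop1, a cytosolic peptidase that destroys peptides, stood at 9.02 and 12.5 FPKM (p = 0.00795, q = 0.189 by Cuffdiff in the authors' deposited table). The peptidase genes Npepps, Lap3 and Nrdc had levels of 29.8 and 25.8 FPKM, 40.9 and 45.4 FPKM and 46.5 and 47.2 FPKM.

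Among 17 tested genes for partners of NLRC5 and other transcription factors of class I genes, Relb fell and 0 rose. Relb, an NF-kB subunit, stood at 30.6 FPKM under MEK1-low and 16.2 FPKM under MEK1-hi exosomes, and the log2 fold change was -0.87 (q = 0.00349 by Cuffdiff in the authors' deposited table). At an unadjusted p under 0.05, 4 were lower (Relb, Irf1, Rfxap and Nfkb1) and 0 higher, and the median of the 17 was -0.15. Beside these counts, 5.12% of all loci tested were lower and 3.53% higher at that p, and Cuffdiff called 2.44%. Nfkb1, another NF-kB subunit, was named after its value was seen and stood at 55.2 and 44.1 FPKM. Irf1, the interferon-induced factor that binds response elements in class I promoters, stood at 46.5 and 33.1 FPKM (p = 0.00255, q = 0.0853 by Cuffdiff in the authors' deposited table). Rfxap and Rfx5, 2 subunits of the factor that binds the X box, had levels of 20.6 and 13.2 FPKM and of 4.02 and 2.81 FPKM, with q = 0.323 and 0.786 by Cuffdiff in the authors' deposited table. Nfya, an NF-Y subunit, stood at 59.0 and 64.8 FPKM, and Ciita, the class II transactivator gene, at 1.49 and 0.927 FPKM. The q-values by Cuffdiff of Nfya and Ciita in the authors' deposited table were 0.999 and 0.592. One gene of this list is not analysed here.

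Of 10 tested genes for interferon receptors, their kinases and their inhibitors, Socs3 fell and 0 rose. Cuffdiff called 1.69% of all loci tested as lower and 0.751% as higher. Values were lower with MEK1-hi exosomes in 9 of these 10 genes and higher in 1, and their median log2 fold change was -0.12. Of all loci tested at 1 FPKM or more, 49.8% were lower. Socs3, a feedback inhibitor of cytokine signals, stood at 14.9 FPKM under MEK1-low and 5.66 FPKM under MEK1-hi exosomes (q = 0.00349 by Cuffdiff in the authors' deposited table). The interferon gamma receptor gene Ifngr2 stood at 76.6 and 56.8 FPKM (q = 0.722 by Cuffdiff in the authors' deposited table). The locus of the type I interferon receptor gene Ifnar2, joined with Il10rb and Gm21970, stood at 317 and 307 FPKM, Ifnar1 at 93.8 and 85.2 FPKM, and the inhibitor gene Socs1 at 2.81 and 2.23 FPKM, none of them called. The loci of Ifng and Ifnb1, 2 interferon genes, stood at 0.0850 and 0.0517 FPKM with MEK1-low exosomes, were listed at 0 with MEK1-hi exosomes and were not tested.

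Of 17 tested genes for cross-presentation, the display of engulfed material on class I, and for class I traffic, Cybb fell and 0 rose. Cybb, the catalytic subunit of the phagocyte NADPH oxidase, stood at 549 FPKM under MEK1-low and 316 FPKM under MEK1-hi exosomes (q = 0.00349 by Cuffdiff in the authors' deposited table). Vamp8, a vesicle fusion gene, stood at 305 and 234 FPKM (q = 0.205 by Cuffdiff in the authors' deposited table). The Rab GTPase loci of Rab11a and Rab27a, each joined with a predicted gene, had levels of 297 and 318 FPKM and of 0.553 and 1.02 FPKM, neither of them called. The median of this list was 0.02. Over all 8 lists of other pathway genes, without the non-classical genes, 3 of 89 fell and 0 rose by Cuffdiff in the authors' deposited table, beside 2.44% of all loci tested called in either direction.

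**Figure D5:**
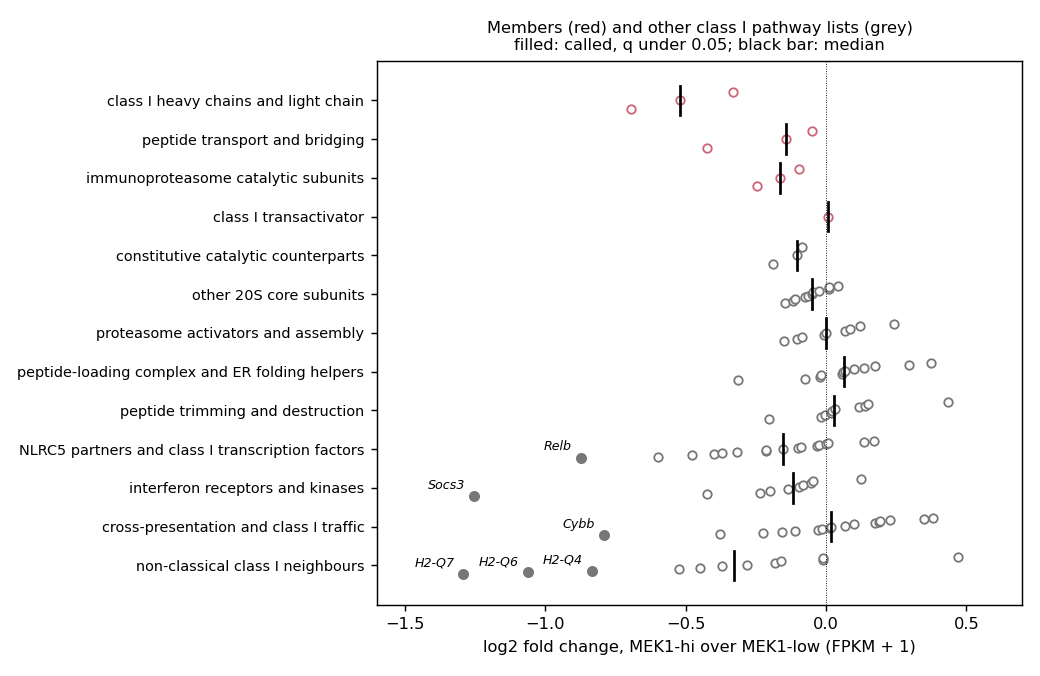
Log2 fold change (horizontal axis, FPKM + 1) of each gene tested at 1 FPKM or more, by list, with the 10 genes in red in the top 4 rows, other lists in grey, filled points for called genes and a black bar at each median. The heavy and light chain row has its median at -0.52, the folding helpers at 0.06, and no gene of the top 4 rows is filled.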

How the data were processed

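RNA of 4 macrophage samples was sequenced, per the labels' protocols, from 750 ng of RNA with an integrity number above 8, with a stranded mRNA kit, paired reads of 100 bases and about 25 M reads aimed at per sample. FastQC 0.73, TopHat, Cufflinks and Cuffdiff were used with mm10, per the submitters' processing notes, which record no settings here. The authors deposited 1 table laid out as Cuffdiff writes it, per the file headers, with 1 FPKM value per group and the authors' test statistic (a score), p-value and q-value, as deposited. Values per sample were not used here, and how the authors scaled the libraries is not stated in those sources.

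The columns GFP exo and MEK1 exo were matched to MEK1-low and MEK1-hi through the treatment labels. Of 55082 gene identifiers, 54824 (99.5%) matched a symbol. Gene positions are from GENCODE M21 on the same build, counted from 1. Recomputing the q-value by Benjamini-Hochberg over the 12648 tested loci gave differences of at most 5.19e-07. Fold changes used a pseudocount of 1 FPKM, medians loci of at least 1 FPKM in either group. Every statistical test is the authors' own. Calculations used Python 3.11.15 with pandas 2.3.3, and Biopython 1.88 for alignment, and were checked on simulated data.

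The 10 genes and the lists were chosen with earlier results of these data known. Beside them, the rule named every called gene of a list, its 2 largest changes not called, its 2 highest means and 9 further genes in any case. One gene that the rule named is not reported here. Alternatives covered pseudocounts, filters, scaling, call thresholds and joined loci.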

Additional observations from a re-analysis of the deposited data

How the results depend on the processing

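The count of called members moved from 0 to 1 (H2-K1) at a q under 0.10 and to 3 at an unadjusted p under 0.05. The count of other pathway genes moved from 3 to 11 of 89 at that p, which 8.66% of all loci tested passed. At a q under 0.01, or with an absolute test statistic of at least 2 required besides the q under 0.05, both counts were as reported. Both settings only add to the call rule, so the count of 0 members could not change under them. By the statistic alone, H2-K1 (-2.15) and H2-D1 (-2.08) reached an absolute value of 2. The median of the 10 genes lay between -0.21 and -0.15 under all settings, the latter without H2-K1 and H2-D1, a setting chosen after seeing the data, and it was -0.16 both with FPKM-sum scaling and without the joined Tapbp locus. Values were lower in 9 of 10 under both scalings. The proteasome gene ratios moved by less than 1.5 times with a pseudocount. Over 50 named genes and 4 settings each, 0 of 200 log2 fold changes changed sign, and 19 moved by over 1.5 times. The 2 pseudocount settings add the same amount to both values and so could not change a sign. Median centring, by a log2 ratio of 0.000785, was too small to change one among these genes. Only FPKM-sum scaling, by a log2 ratio of -0.0435, could have done so. No paired analysis was possible because the table holds 1 value per group, and leaving out replicates was not run for the same reason. With depth unknown, the smallest change that could have been called for each gene cannot be given.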

Other observations

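The 30 promoter windows with all 4 motifs belonged to 29 genes, 26 of them outside the 10 genes described. Of the 19 among these tested at 1 FPKM or more, 12 had lower values with MEK1-hi exosomes, where 49.8% of all loci at that level did. The median log2 fold change was -0.05. By Cuffdiff in the authors' deposited table, 3 of the 19 were called, beside 2.44% of all loci tested. The 3 called were all class I genes and all fell: H2-Q4 and H2-Q7, given above, and H2-M2, which stood at 14.7 FPKM under MEK1-low and 4.03 FPKM under MEK1-hi exosomes, with q = 0.00349 by Cuffdiff in the table the authors deposited. The class II gene H2-Aa, at 844 and 667 FPKM, and the class I gene H2-T22, at 50.8 and 39.0 FPKM, also carried all 4 motifs and were not called. The same held for the class I gene H2-M3, at 40.4 and 36.1 FPKM (log2 fold change -0.16). Among those of the 19 without an H2 symbol, log2 fold changes ran from -0.25 for Msrb2, at 1.90 and 1.43 FPKM, to 0.68 for Mcm7, at 4.76 and 8.26 FPKM, and none was called by Cuffdiff. These genes were picked out after the motif matches were seen.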
